A study of Homo sapiens with 8 samples.

Results

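The genes described here encode the machinery that packs, holds and moves chromosomes in mitosis. They are 40 genes listed by name: 12 centromere proteins, 8 subunits of the microtubule-binding core of the kinetochore (the KMN network), 6 spindle checkpoint genes, 5 condensin subunits, 3 cohesin subunits, and 5 kinesins with the midzone protein PRC1. All 40 were found by Ensembl identifier among the 63241 gene identifiers of each library.

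Expression was measured by sequencing of polyadenylated RNA in HepG2 and Huh7, established human liver cancer cell lines. In each line, WT cells (labelled control) were set against SR cells (labelled sorafenib), a resistant derivative raised in stepwise increasing sorafenib, a multikinase inhibitor given in liver cancer. The 8 libraries comprised a pair of each kind of cells (WT and SR of HepG2, WT and SR of Huh7), all given the same batch label. The labels do not say whether SR cells were in drug at harvest, whether a line was 1 clone, or whether the 2 libraries of a group were separate cultures. The p-values therefore measure the spread between these libraries, which may be technical. That spread includes differences of whole expression profiles within a labelled group, described below.

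A kinetochore is built on each centromere during every cell division. Most centromere proteins assemble on the specialised chromatin that holds CENPA, and the NDC80, MIS12 and KNL1 proteins attached to them grip spindle microtubules. Checkpoint kinases and MAD and BUB proteins delay anaphase until every chromosome is attached. Condensin compacts mitotic chromosomes, cohesin holds sister chromatids together and also shapes interphase chromatin, and mitotic kinesins build the spindle and its midzone. Most of these genes are transcribed late in the cell cycle, so their RNA in a bulk sample follows the share of dividing cells. In bulk RNA, fewer dividing cells and less of the RNA in each dividing cell cannot be told apart.

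The start sites of several members carry short elements known from genes of the late cell cycle, and these are shown as a description of the genes. The elements searched were the cell cycle homology region (CHR; TTTGAA or TTCGAA), the CCAAT box (CCAAT) and an E2F site (GGCGGGAA or GGCGCGAA), on both strands, from 250 bases before to 50 bases after the first RefSeq start site listed for each gene (GRCh38.p14). None of these words contains another. An entry was found for 33 of the 40 members, and BUB3, CENPH, CENPL, CENPM, KNL1, RAD21 and TTK had none. The 110 bases before the start site follow for 2 members with CHR letters there (KIF11, a kinesin motor of the spindle, and ZWINT, a kinetochore adaptor) and 2 without (CENPF and CENPK). Sequences run 5′ to 3′ on the gene's strand, with the searched letters of either strand in capitals.
KIF11, chr10:92593020-92593129, plus strand: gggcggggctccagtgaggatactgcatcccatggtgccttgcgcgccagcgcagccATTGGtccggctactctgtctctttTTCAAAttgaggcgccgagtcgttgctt
ZWINT, chr10:56361260-56361369, minus strand: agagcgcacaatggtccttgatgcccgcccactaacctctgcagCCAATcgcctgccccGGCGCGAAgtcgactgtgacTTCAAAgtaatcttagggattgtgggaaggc
CENPF, chr1:214603085-214603194, plus strand: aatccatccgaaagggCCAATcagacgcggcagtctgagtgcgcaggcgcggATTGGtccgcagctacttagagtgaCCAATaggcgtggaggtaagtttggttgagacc
CENPK, chr5:65563169-65563278, minus strand: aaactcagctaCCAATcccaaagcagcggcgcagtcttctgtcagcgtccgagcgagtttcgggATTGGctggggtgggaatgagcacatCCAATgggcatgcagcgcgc

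In KIF11 the CHR letters began 28 bases before the RefSeq start site and a CCAAT box 53 bases before it. The GENCODE release 29 gene begins further downstream, at chr10:92593286. In ZWINT a CCAAT box, an E2F site and CHR letters followed one another, beginning 66, 51 and 31 bases before the start site. The CENPF window held 3 CCAAT boxes and no CHR letters, which came 40 bases after its start site, and the CENPK window held 3 CCAAT boxes. Over the whole searched window, CHR letters were found in 21 of 33 members (63.6%) and in 16.6% of 27305 genes. A CCAAT box was found in 57.6% of members against 35.7% of all genes, both elements in 39.4% against 6.58%, and the E2F letters in 15.2% against 4.15%. A match is a description of letters and was not tested as a binding site. The presence of CHR letters did not sort the members by their change: the median log2 fold change of SR versus WT was 0.80 in the 21 members with them and 0.80 in the 12 without.

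Some libraries stood apart before SR was compared with WT. Across 15173 genes, Pearson's r of log2(FPKM + 1) was at least 0.914 within a set of 5 libraries, made of the HepG2 WT pair, replicate 1 of HepG2 SR and replicate 2 of both Huh7 groups. Replicate 1 of Huh7 WT and of Huh7 SR had r of 0.965 with each other and at most 0.783 with those 5, and HepG2 SR replicate 2 had r of at most 0.846 with any library. Expression profiles thus did not sort by labelled line, and the groups are those of the labels throughout. KRT19, a keratin of biliary epithelium, was between 155 and 760 FPKM in the 5 libraries and between 0.179 and 2.37 FPKM in the other 3. Hepatocyte genes were present in every library, with 9 or 10 of 10 markers at an FPKM of at least 1, but their summed level ran from 721 FPKM in Huh7 WT replicate 1 to 10446 FPKM in Huh7 SR replicate 2, and ALB (albumin) was 11.98 FPKM in the former. Markers of other cell types were mixed. PTPRC and CD3E, which define leukocytes and lymphocytes, were at most 0.0415 FPKM in any library, but CD68 was between 3.94 and 29.1 FPKM, CD14 reached 6.27 FPKM, and LYZ was between 44.2 and 1058 FPKM and higher in SR than in WT in all 4 same-numbered pairs, so that the summed level of the 5 leukocyte genes ran from 61.3 to 293 FPKM in WT and from 83.6 to 1065 FPKM in SR. Of 6 fibroblast genes, DCN and LUM were at most 0.228 FPKM, while COL1A2 was 8.28 FPKM in HepG2 SR replicate 2 and PDGFRB, COL1A1 and COL3A1 reached 3.12, 1.67 and 1.55 FPKM, and the summed level was between 0.733 and 5.44 FPKM in WT and between 1.56 and 9.03 FPKM in SR. Of 4 endothelial genes, VWF, CDH5 and KDR were at most 0.225 FPKM and PECAM1 was between 0.517 and 4.28 FPKM, with a summed level between 0.787 and 4.52 FPKM in WT and between 0.772 and 3.02 FPKM in SR. HepG2 WT replicate 2 differed in another way, with 38276 genes above 0 FPKM against 27188 to 29071 in the other libraries. The part of these differences in the results on mitotic genes was not tested.

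All 40 members were expressed, and all passed the filter (FPKM 1 or more in 2 or more libraries). FPKM scales fragments for transcript length and library total, so levels can be set side by side between genes. Mean FPKM over the 8 libraries ran from 2.98 for CENPL to 56.5 for RAD21, the cleavable ring subunit of cohesin. The median member varied 6.29-fold between its highest and its lowest library, from 1.83-fold for NSL1, a subunit of the MIS12 complex, to 29.8-fold for NCAPG, a subunit of condensin I. Cohesin varied least, with a median of 3.54-fold over its 3 subunits, and the group of kinesins and PRC1 varied most, with 11.8-fold over 6 genes.

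**Figure D1:**
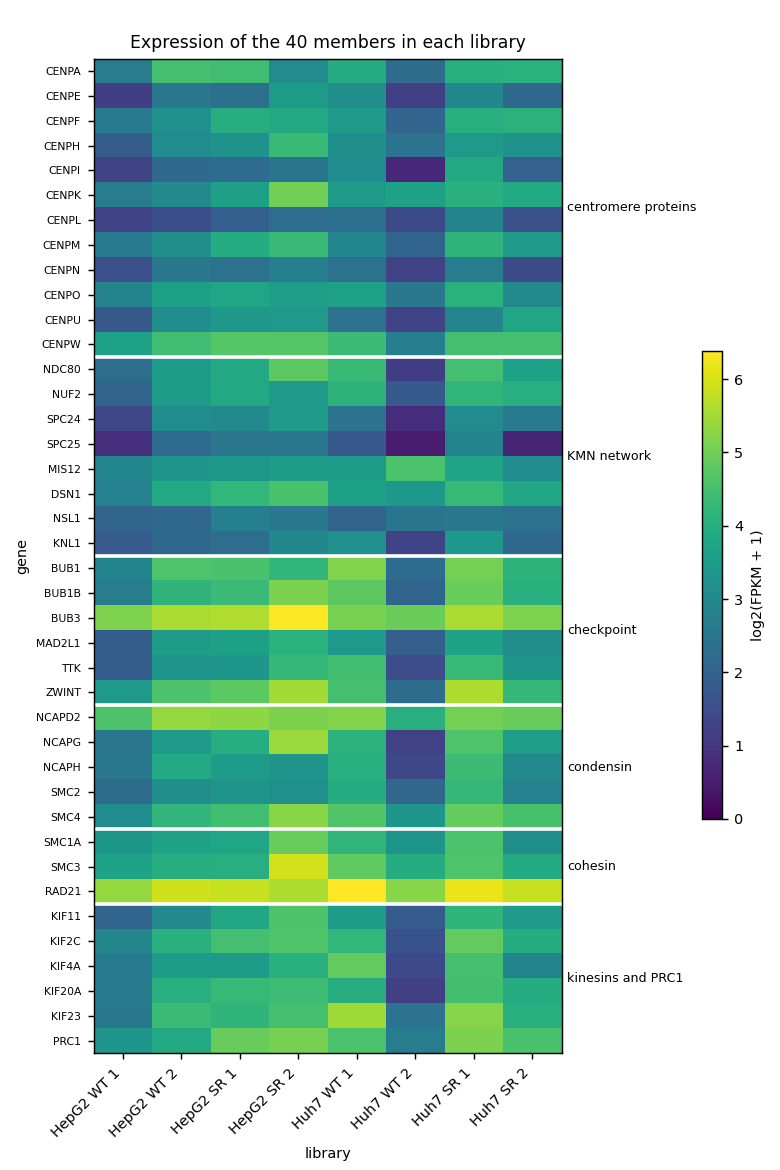
Level of each of the 40 members (rows, grouped by complex) in each of the 8 libraries (columns), as log2(FPKM + 1) on the colour scale. The columns for HepG2 WT replicate 1 and Huh7 WT replicate 2 are darkest for most members, and BUB3 and RAD21 are bright in every column.

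The 2 WT libraries of each line differed from each other more than SR differed from WT for many members. Averaged over the 40 members, log2(FPKM + 1) was 2.60 and 3.58 in the 2 HepG2 WT libraries and 3.79 and 4.17 in HepG2 SR. It was 3.87 and 2.27 in Huh7 WT and 4.20 and 3.46 in Huh7 SR, with replicate 1 first. Both SR libraries thus lay above both WT libraries in HepG2, whereas in Huh7 WT replicate 1 lay above SR replicate 2. Over all genes tested, the same mean lay between 2.95 and 3.08 in all 8 libraries.

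A single library was the lowest for most members. Huh7 WT replicate 2 was lowest for 29 of the 40 genes and HepG2 WT replicate 1 for 9, while HepG2 SR replicate 2 was highest for 16 and Huh7 SR replicate 1 for 12. Genes of S phase showed the same 2 libraries at the bottom: the mean log2(FPKM + 1) of 15 of them, the MCM helicase subunits among them, was 3.67 in HepG2 WT replicate 1 and 3.31 in Huh7 WT replicate 2, against 4.15 to 5.41 in the other 6. For 12 general proliferation genes it was 3.47 and 3.04, against 4.44 to 4.997. The part of a lower overall share of cycling cells in these 2 WT libraries was not tested.

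**Figure D2:**
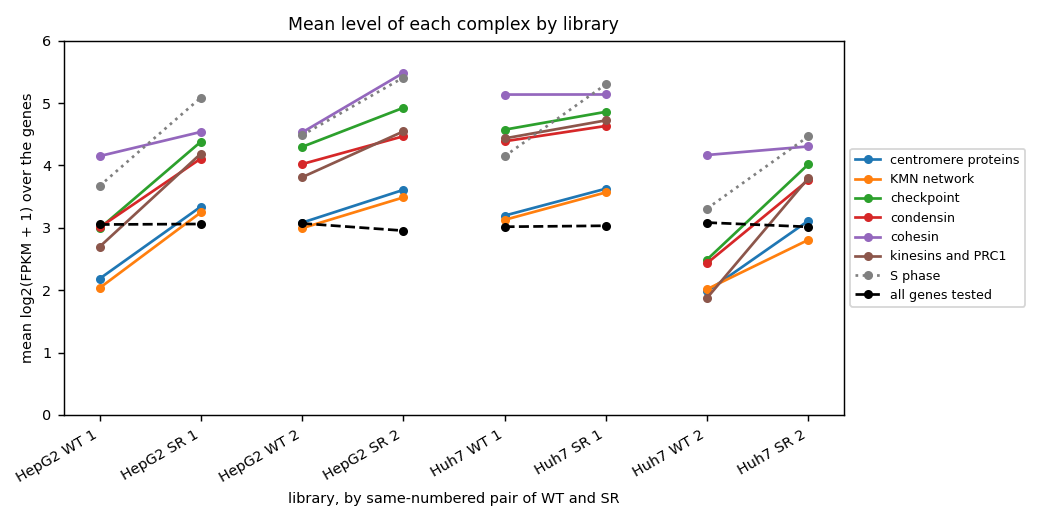
Mean log2(FPKM + 1) of each complex, of 15 S phase genes (dotted) and of all 15173 genes tested (dashed) in each library, with same-numbered WT and SR libraries joined by a line. Every complex rises from WT to SR in the first HepG2 pair and moves less in the first Huh7 pair, where S phase genes rise from 4.15 to 5.30.

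SR was compared with WT to ask which genes accompany acquired resistance. A gene was called by limma on log2(FPKM + 1) where its unadjusted p was under 0.05 and its log2 fold change was 0.5 or more in size. By this rule 3 members rose in HepG2 SR (CENPK, CENPM and KIF11), where 0.877% of all genes tested rose. In Huh7 SR 3 members rose (CENPF, CENPM and CENPU), against 0.942% of all genes. Averaged over both lines 7 members rose (CENPF, CENPK, CENPM, CENPU, DSN1, KIF11 and PRC1), against 1.9% of all genes. In the same comparisons 0 members fell, while 1.27%, 0.923% and 2.03% of all genes did. These calls depended on the fit. With each line fitted alone 4 members were called in HepG2 (1.19% of all genes rose) and 0 in Huh7 (0.461%). With the replicate number as a block shared by both lines, CENPK alone was called in HepG2 (0.844% of all genes rose) and CENPM alone in Huh7 (0.817%). That fit called 6 members on average (1.67%), all but DSN1. After rescaling to TPM 1 member was called in HepG2 (0.567% of all genes rose), 2 in Huh7 (0.712%) and 6 on average (1.3%). In no comparison did any gene reach a Benjamini-Hochberg adjusted p under 0.05: the smallest adjusted p from limma over all genes was 0.956 in HepG2, 0.99996 in Huh7 and 0.998 for the average. At an unadjusted limma p under 0.05 alone there were 325, 283 and 597 of 15173 genes.

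The direction was shared more widely than the calls. The fitted log2 fold change was above 0 for 40 of 40 members in HepG2 (47.6% of all genes), for 38 of 40 in Huh7 (44.7% of all genes) and for 39 of 40 on average (44.9% of all genes). Its median over the members was 0.98 in HepG2, 0.72 in Huh7 and 0.80 on average, against -0.03, -0.05 and -0.05 over all genes. Members share libraries and cell cycle timing, so these counts are not 40 independent observations.

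These sizes rested on single WT libraries. Without HepG2 WT replicate 1 the HepG2 median was 0.41 with 0 members called (0.266% of all genes rose), and without HepG2 WT replicate 2 it was 1.54 with 6 risen (0.967% of all genes). Leaving out HepG2 SR replicate 2 also gave 0 called in HepG2 (0.167% of all genes rose), with a median of 0.77. Without Huh7 WT replicate 1 the Huh7 median was 1.76, with 20 members risen and 1 fallen (MIS12), where 2.36% of all genes rose and 3.25% fell. Without Huh7 WT replicate 2 it was -0.025 with 0 called (0.836% of all genes rose). Leaving out either Huh7 SR library, or either HepG2 SR library, left 1 member called in Huh7, where between 0.923% and 2.17% of all genes rose, and the Huh7 median was 0.36 without SR replicate 1 and 1.17 without SR replicate 2.

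On average, 1 member was called without HepG2 WT replicate 1 (0.706% of all genes rose) and 24 without Huh7 WT replicate 1 (3.05%). The count was 2 without HepG2 SR replicate 2 (0.876%). Leaving out Huh7 WT replicate 2 gave 3 (1.58%), as did leaving out Huh7 SR replicate 1 (1.84%). Without the 3 libraries that stand apart it was 16, with a median of 0.97, where 6.19% of all genes rose. That fit has 1 residual degree of freedom, since only HepG2 WT keeps its pair, and the lone libraries of the other groups are assumed to vary like that pair.

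Same-numbered libraries were also compared within each line. In the first HepG2 pair SR exceeded WT for 40 of 40 members (49% of all genes), 25 of them by at least 1 on the log2 scale (3.96% of all genes). In the second HepG2 pair it did so for 33 (46.9% of all genes), with 10 of them by at least 1 (12% of all genes). That pair sets HepG2 SR replicate 2, which stands apart, against a WT library that does not (r of 0.806, KRT19 at 0.179 against 279 FPKM). Its SR difference cannot be told apart from that difference of profiles. The first Huh7 pair, made of the 2 libraries that resemble each other most in that line, had 32 members higher in SR (49.9% of all genes) but 3 by at least 1 (2.91% of all genes), namely CENPM, SPC25 and ZWINT. In the second Huh7 pair 36 were higher in SR (41.3% of all genes), 23 of them by at least 1 (7.69% of all genes). The median difference over the members was 1.34, 0.58, 0.32 and 1.34 in these pairs.

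All 4 pairs had SR above WT for 25 of 40 members, compared with 9.16% of all genes, and 0 members had SR below WT in all 4, compared with 12.4% of all genes. With the replicate number within each cell line as a block, limma called 20 members as risen on average, against 4.55% of all genes, and 0 members as fallen, against 5.4%. The smallest adjusted p of that limma fit over all genes was 0.471. Same-numbered libraries deviated together in Huh7 (r of deviations 0.796) but hardly in HepG2 (0.125). Both Huh7 replicate 1 libraries stand apart in profile from both Huh7 replicate 2 libraries, so the Huh7 value cannot show paired cultures. A pairing in either line is an assumption of that fit. The 20 included the 7 named above, and added CENPE, CENPH and CENPI of the centromere proteins, NDC80 and SPC24 of the kinetochore core, BUB1B, MAD2L1, TTK and ZWINT of the checkpoint, NCAPG and SMC4 of condensin, and KIF2C and KIF20A of the kinesins.

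The centromere proteins held 4 of the 7 called members. CENPM (chr22:41938721-41947164, GENCODE release 29, GRCh38), a small subunit of the inner kinetochore, was 5.11 and 8.04 FPKM in HepG2 WT and 14.4 and 18.6 FPKM in HepG2 SR. It was 6.59 and 3.17 FPKM in Huh7 WT and 16.9 and 9.93 FPKM in Huh7 SR. All 4 SR libraries lay above all 4 WT libraries, and the 4 pair differences were close to one another, between 1.11 and 1.39. The averaged log2 fold change was 1.27 (standard error 0.33), and CENPM stayed past the thresholds with any single library left out.

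CENPF (chr1:214603195-214664588), a large protein of the outer kinetochore and nuclear matrix, was 5.35 and 8.28 FPKM in HepG2 WT and 14.7 and 14.0 FPKM in HepG2 SR. It was 9.92 and 3.23 FPKM in Huh7 WT and 15.4 and 16.2 FPKM in Huh7 SR. The 4 SR libraries lay within 2.2 FPKM of one another and above every WT library. Its averaged log2 fold change was 1.15 (standard error 0.35), and 1.02 and no longer called without HepG2 WT replicate 1. In Huh7 alone it was 1.31, and that call was lost with any library left out except Huh7 WT replicate 1.

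CENPH and CENPW were the other members with no overlap between SR and WT in FPKM. Neither passed the limma thresholds, and neither kept its separation after rescaling to TPM. CENPH, an inner kinetochore subunit, was 2.71 and 7.68 FPKM in HepG2 WT, 8.77 and 18.7 FPKM in HepG2 SR, 8.005 and 4.38 FPKM in Huh7 WT and 9.74 and 8.79 FPKM in Huh7 SR. The gap was narrow, from 8.005 FPKM in the highest WT library to 8.77 FPKM in the lowest SR library. CENPW, which binds centromeric DNA with a histone-like fold, was 11.6 and 20.7 FPKM in HepG2 WT, 25.1 and 24.5 FPKM in HepG2 SR, 19.4 and 5.64 FPKM in Huh7 WT and 21.4 and 21.8 FPKM in Huh7 SR. Here too the highest WT library, at 20.7 FPKM, came close to the lowest SR library, at 21.4 FPKM.

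In all, 4 of 40 members (CENPF, CENPH, CENPM and CENPW) had every SR library above every WT library, against 1.52% of all genes, and 0 had every SR library below every WT library, against 2.17% of all genes. No permutation p is given for them, since groups that do not overlap fix it at its minimum. Scaling moved this count. Summed FPKM was between 384792 and 403905 in the WT libraries and between 411763 and 429111 in the SR libraries. The count was 2 after rescaling to TPM (CENPF and CENPM, where 0.936% of all genes were separated) and 8 after quantile normalization (1.74%). The share of all genes also rose when libraries were left out, and the count was 7 without HepG2 WT replicate 2 (2.67% of all genes), 11 without Huh7 WT replicate 1 (3.83%), 14 without Huh7 SR replicate 2 (3.66%), and 13 without the 3 libraries that stand apart (9.65%).

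CENPK and CENPU rose on average, and both had both SR libraries above both WT libraries in each line. CENPK, a partner of CENPH, was 5.52 and 7.10 FPKM in HepG2 WT and 11.4 and 31.7 FPKM in HepG2 SR, against 10.2 and 11.6 FPKM in Huh7 WT and 15.7 and 13.8 FPKM in Huh7 SR. Its log2 fold change was 1.47 (standard error 0.49) in HepG2 and 0.40 (standard error 0.49) in Huh7, and the difference between lines did not pass the thresholds (-1.07, standard error 0.69). The averaged value of 0.94 was 0.59 without HepG2 SR replicate 2, where the call was lost, and 0.51 without the 3 libraries that stand apart. The call was also lost, at values between 0.86 and 1.02, without HepG2 WT replicate 1 or 2, Huh7 WT replicate 1 or 2, or Huh7 SR replicate 1 or 2, so it held only without HepG2 SR replicate 1.

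CENPU, which links the inner kinetochore to Polo-like kinase, was 2.43 and 7.69 FPKM in HepG2 WT and 9.52 and 9.82 FPKM in HepG2 SR, against 4.202 and 1.46 FPKM in Huh7 WT and 6.48 and 12.7 FPKM in Huh7 SR. Its log2 fold change was 1.50 (standard error 0.61) in Huh7 and 0.97 (standard error 0.61) in HepG2, where it was 0.30 without HepG2 WT replicate 1, and the difference between lines did not pass the thresholds (0.53, standard error 0.86). The averaged value was 1.23 (standard error 0.43). That call was lost without HepG2 WT replicate 1 (0.90), Huh7 WT replicate 2 (0.96), Huh7 SR replicate 2 (1.01), HepG2 SR replicate 1 (1.24) or HepG2 SR replicate 2 (1.22).

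The other centromere proteins did not pass the thresholds. CENPA, the histone H3 variant that marks the centromere, was 21.3 FPKM in HepG2 WT replicate 2, its highest library, and 7.40 FPKM in HepG2 SR replicate 2, so the 2 HepG2 pairs had opposite signs (1.74 and -1.41 on the log2 scale). CENPE, CENPI, CENPL, CENPN and CENPO had averaged log2 fold changes between 0.38 and 0.81. CENPO shares 27.0% of its exon bases with ADCY3 and CENPN 12.8% with CMC2, both on the opposite strand, so their reads may not be separated. Over the 12 centromere proteins the median was 0.81.

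**Figure D3:**
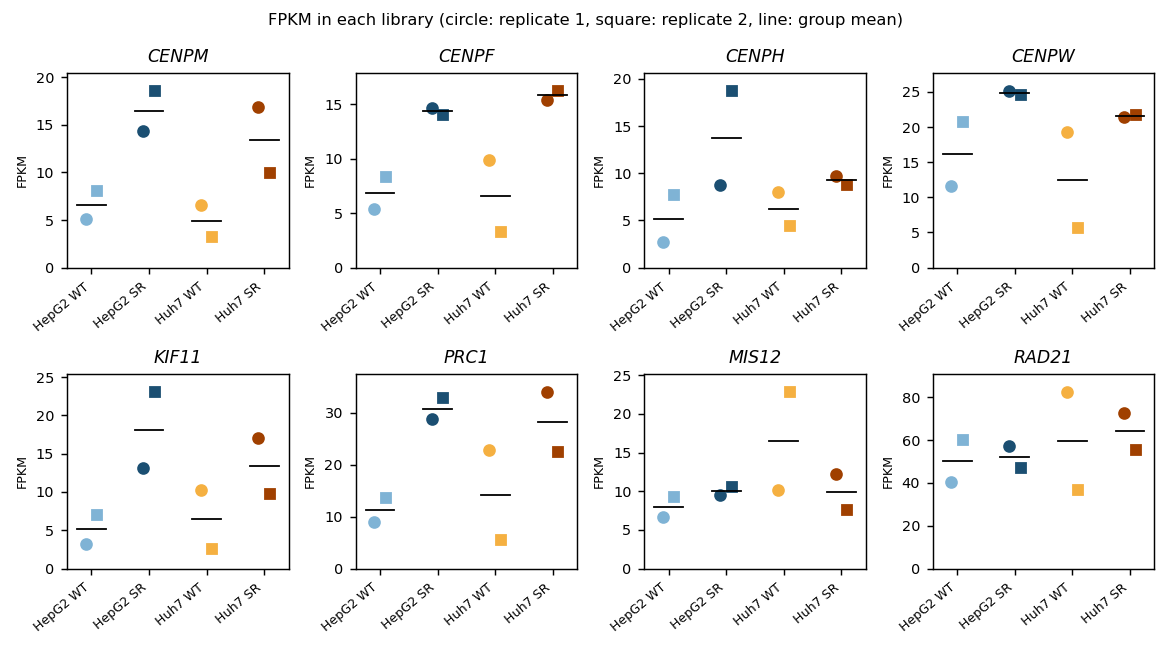
FPKM of 8 members in each library, replicate 1 as circles and replicate 2 as squares, with lines at group means of 2 libraries. CENPM, CENPF, CENPH and CENPW have every SR point above every WT point, KIF11 and PRC1 overlap through Huh7 WT replicate 1, MIS12 peaks at 22.9 FPKM in Huh7 WT replicate 2, and RAD21 is highest at 82.5 FPKM in Huh7 WT replicate 1.

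In the microtubule-binding core of the kinetochore, 1 of 8 members rose on average. DSN1, the MIS12 complex subunit that receives Aurora B phosphorylation, was 6.03 and 13.9 FPKM in HepG2 WT, 17.7 and 22.4 FPKM in HepG2 SR, 11.3 and 9.64 FPKM in Huh7 WT and 18.4 and 13.3 FPKM in Huh7 SR. The averaged log2 fold change was 0.79 (standard error 0.31). HepG2 WT replicate 2, at 13.9 FPKM, overlapped Huh7 SR replicate 2. That call held only without HepG2 WT replicate 2 or Huh7 SR replicate 2, and the value was 0.51 without HepG2 WT replicate 1 and between 0.68 and 0.87 in the other fits with 1 library left out that lost it. The call was also lost after rescaling to TPM (0.73), with the replicate number as a block shared by both lines (0.79) and without the 3 libraries that stand apart (0.65).

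NDC80, the subunit that contacts the microtubule, had the largest averaged change of this group but did not pass the thresholds (1.36, standard error 0.72). It was 3.97 and 10.6 FPKM in HepG2 WT, 13.5 and 26.5 FPKM in HepG2 SR, 18.9 and 1.25 FPKM in Huh7 WT and 21.1 and 11.6 FPKM in Huh7 SR. The 2 Huh7 WT libraries spanned nearly its whole range, and the Huh7 value of 1.32 was -0.25 without Huh7 WT replicate 2. Its partners NUF2, SPC24 and SPC25 had averaged changes of 0.999, 1.13 and 0.80. SPC24 and SPC25 were under 1 FPKM in Huh7 WT replicate 2, and SPC25 was 0.568 FPKM in Huh7 SR replicate 2 but 6.24 FPKM in Huh7 SR replicate 1.

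MIS12 was the 1 member with a negative averaged change (-0.15, standard error 0.33), which was 0.12 without Huh7 WT replicate 2 and 0.0015 when SR replicate 2 of Huh7 was left out. It was 6.71 and 9.23 FPKM in HepG2 WT, 9.56 and 10.6 FPKM in HepG2 SR, 10.2 and 22.9 FPKM in Huh7 WT and 12.2 and 7.57 FPKM in Huh7 SR. Its highest level came in Huh7 WT replicate 2, the library in which 29 members were lowest. MIS12 shares 9.53% of its exon bases with DERL2 on the opposite strand (mean 14.0 FPKM), and no source says that reads were counted by strand, so reads of the 2 genes may not be separated. NSL1 and KNL1, the remaining subunits, had averaged changes of 0.37 and 0.59.

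None of the 6 checkpoint genes passed the thresholds, although their median averaged change was 0.99. ZWINT, whose start site region is printed above, was 9.76 and 23.5 FPKM in HepG2 WT, 26.6 and 44.2 FPKM in HepG2 SR, 21.8 and 3.74 FPKM in Huh7 WT and 47.4 and 18.2 FPKM in Huh7 SR. Each SR library exceeded the WT library of its number, by 0.89 to 2.02 on the log2 scale, but Huh7 SR replicate 2 lay below 2 WT libraries. The averaged change was 1.34 (standard error 0.60).

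BUB3, which recruits the checkpoint kinases to kinetochores, was the most abundant checkpoint gene and the least variable. It was 34.4 and 46.4 FPKM in HepG2 WT, 48.5 and 81.2 FPKM in HepG2 SR, 33.5 and 30.2 FPKM in Huh7 WT and 46.8 and 34.2 FPKM in Huh7 SR. Its averaged change was 0.48 (standard error 0.27). The kinases BUB1 and TTK and the BUB1-related BUB1B each spanned more than their group differences: BUB1 was 35.1 and 3.69 FPKM, TTK 20.7 and 1.83 FPKM and BUB1B 26.4 and 3.198 FPKM in Huh7 WT replicates 1 and 2. MAD2L1, the anaphase inhibitor, had an averaged change of 0.96.

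Of the condensin subunits, 0 of 5 passed the thresholds. NCAPG, which binds DNA in condensin I, had the largest averaged change of all 40 members at 1.56, with a standard error of 0.70. It was 4.72 and 9.96 FPKM in HepG2 WT, 14.7 and 42.1 FPKM in HepG2 SR, 16.2 and 1.41 FPKM in Huh7 WT and 23.6 and 10.8 FPKM in Huh7 SR. Every SR library lay above its WT partner, but the Huh7 value of 1.40 was -0.016 without Huh7 WT replicate 2.

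NCAPD2, another subunit of condensin I, was the most abundant condensin gene and changed little. It was 23.4 and 40.8 FPKM in HepG2 WT, 38.1 and 33.9 FPKM in HepG2 SR, 35.8 and 15.3 FPKM in Huh7 WT and 32.0 and 29.04 FPKM in Huh7 SR. Both its highest and its lowest library were WT, and its averaged change was 0.29 (standard error 0.34), or -0.0073 without Huh7 WT replicate 2. NCAPH, the subunit that closes the ring, and the ATPases SMC2 and SMC4 had averaged changes of 0.59, 0.53 and 0.95. NCAPG shares 33.1% of its exon bases with LCORL and SMC4 18.5% with TRIM59, both on the opposite strand, and the pseudogene NCAPD2P1 was listed at a mean of 2.31 FPKM, so the split of reads is uncertain for these 3 genes.

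Averaged over both lines cohesin moved least, with 0 of 3 subunits past the thresholds and a median averaged change of 0.46. By line its median was 0.13 in Huh7 but 0.79 in HepG2, above that of condensin (0.56). In the second HepG2 pair its median of 1.23 was the largest of any group. RAD21 was 40.4 and 60.2 FPKM in HepG2 WT, 57.0 and 47.2 FPKM in HepG2 SR, 82.5 and 36.7 FPKM in Huh7 WT and 72.8 and 55.3 FPKM in Huh7 SR. Both extremes were Huh7 WT libraries, and 2 of its 4 pairs had SR below WT. Its averaged change of 0.14 (standard error 0.33) turned to -0.15 without Huh7 WT replicate 2 and to -0.0051 without HepG2 WT replicate 1, and its HepG2 change of 0.07 was -0.034 after rescaling to TPM and -0.038 after quantile normalization.

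SMC3, an ATPase of the cohesin ring, was set by a single library. It was 61.3 FPKM in HepG2 SR replicate 2 and between 11.9 and 27.4 FPKM in the other 7 libraries, with 15.1 FPKM in HepG2 SR replicate 1. Its log2 fold change was 1.15 (standard error 0.68) in HepG2 and -0.12 in Huh7, and the difference between lines did not pass the thresholds (-1.27, standard error 0.96). SMC1A, its partner in the ring, was also highest in HepG2 SR replicate 2, at 28.8 FPKM against 12.4 FPKM in HepG2 SR replicate 1. The processed pseudogene SMC3P1 was listed at a mean of 1.91 FPKM.

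Among the kinesins and PRC1, 2 of 6 rose on average and the median averaged change was 1.29. KIF11 (chr10:92593286-92655395), the motor that pushes spindle poles apart, was 3.25 and 6.96 FPKM in HepG2 WT, 13.1 and 23.1 FPKM in HepG2 SR, 10.3 and 2.61 FPKM in Huh7 WT and 17.0 and 9.79 FPKM in Huh7 SR. Only Huh7 WT replicate 1 overlapped the SR libraries, exceeding Huh7 SR replicate 2 by 0.5 FPKM. The averaged log2 fold change was 1.40 (standard error 0.47, exact permutation p = 0.0571). That permutation test ignores cell line, and its smallest p with 4 against 4 libraries is 0.0286. CENPK, CENPU, DSN1 and NSL1 had the same exact permutation p of 0.0571. Without HepG2 WT replicate 1 (1.17), HepG2 SR replicate 2 (1.20), Huh7 SR replicate 1 (1.21) or Huh7 WT replicate 2 (0.98) it was no longer called.

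PRC1 (chr15:90966038-90995629), which bundles microtubules in the spindle midzone, was 9.04 and 13.6 FPKM in HepG2 WT, 28.7 and 32.8 FPKM in HepG2 SR, 22.7 and 5.51 FPKM in Huh7 WT and 34.0 and 22.5 FPKM in Huh7 SR. HepG2 SR exceeded HepG2 WT by more than the spread within either group, and in Huh7 the WT replicate 1 library matched SR replicate 2. The averaged change was 1.30 (standard error 0.44, exact permutation p = 0.0571). It was 0.83 without Huh7 WT replicate 2, and the call was lost without HepG2 WT replicate 1 (1.16), HepG2 SR replicate 2 (1.25) or Huh7 SR replicate 1 (1.15). PRC1 shares 57.6% of its exon bases with the readthrough gene AC068831.7 on the same strand, listed at a mean of 5.25 FPKM, so reads may have been split between them.

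The remaining kinesins did not pass the thresholds. KIF2C, a microtubule depolymerase, KIF20A, which acts in cytokinesis, KIF23, a subunit of centralspindlin, and KIF4A, a chromosome arm motor, had averaged changes of 1.28, 1.30, 0.76 and 0.63. KIF20A was 1.31 FPKM in Huh7 WT replicate 2 and 14.4 FPKM in the SR library of that number, the largest pair difference of any member at 2.74 on the log2 scale. KIF4A and KIF23 were highest in Huh7 WT replicate 1, at 28.0 and 43.5 FPKM, and lay below it in Huh7 SR replicate 1, at 21.7 and 36.4 FPKM.

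**Figure D4:**
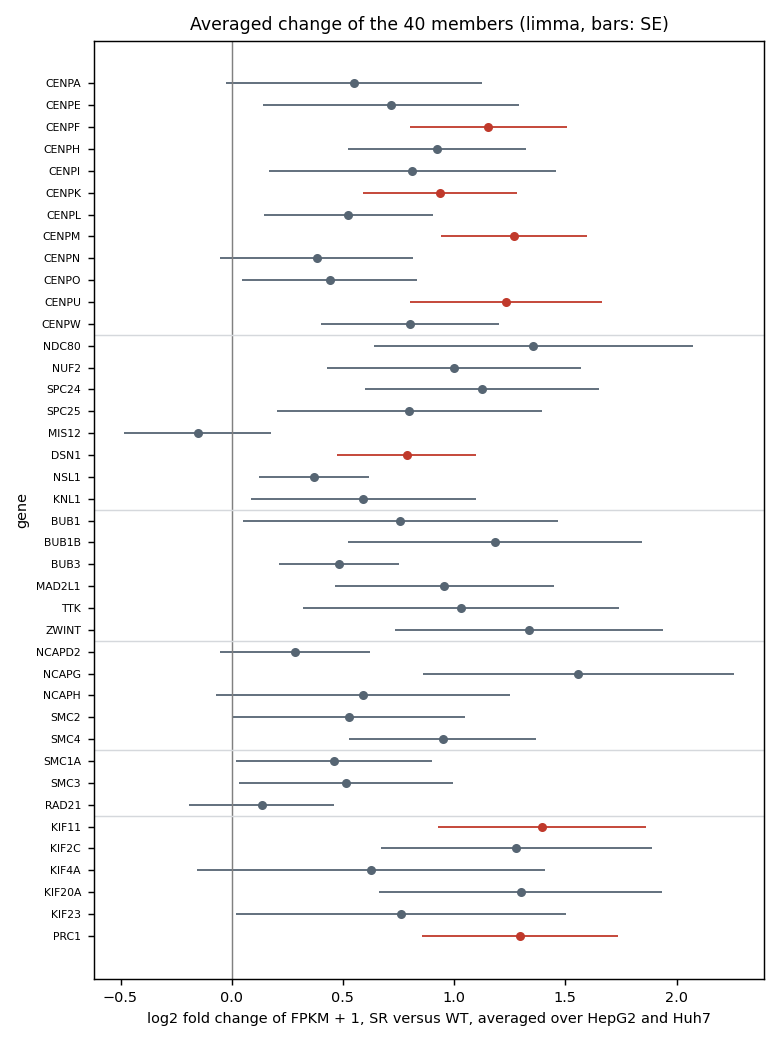
Log2 fold change of FPKM + 1 for SR versus WT averaged over HepG2 and Huh7, 1 point for each member in order of complex, with bars of 1 standard error from limma and the 7 called members in red. 39 of 40 points lie above 0, MIS12 lies below it, and NCAPG has the largest value at 1.56 without being called.

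Huh7 was compared with HepG2, and the SR effect of the lines with each other, to see whether the lines differed. Averaged over WT and SR, 0 members passed the thresholds between Huh7 and HepG2 (2.04% of all genes were higher and 2.87% lower in Huh7), and 0 members did so at an unadjusted limma p under 0.05 alone. The median difference was -0.09, and it changed sign when HepG2 WT replicate 2 (0.15), Huh7 WT replicate 2 (0.27) or Huh7 SR replicate 2 (0.07) was left out. Without Huh7 WT replicate 1, 3 members were lower in Huh7 (1.68% of all genes), and without the 3 libraries that stand apart 7 were (5.33% of all genes), with a median of -0.61. This comparison rests on line labels that the expression profiles did not follow. For the difference between the SR effects, 0 members were called (0.369% of all genes higher and 0.237% lower) and 0 had an unadjusted limma p under 0.05, but CENPK and SMC3 were called as lower in Huh7 without HepG2 SR replicate 1, where 2.58% of all genes were. The standard errors of that difference, up to 1.57 on the log2 scale for KIF4A, left room for large differences between lines that 2 libraries a group could not show.

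Other genes of the same structures were taken from lists of 67 genes, of which CENPP was under the filter and 66 were tested. In HepG2 SR 1 of the 66 rose (AURKA), where 0.877% of all genes tested rose. In Huh7 SR 3 rose (AURKA, CENPX and KNTC1), against 0.942% of all genes, and on average 9 rose, against 1.9%. In the same comparisons 0 of the 66 fell, while 1.27%, 0.923% and 2.03% of all genes did. Their median averaged change was 0.76, next to 0.80 for the 40 members. By structure, 3 of 16 other kinetochore genes (CENPX, HJURP and SKA3), 2 of 10 other checkpoint genes (CDC20 and KNTC1), 1 of 15 other condensin and cohesin genes (ESCO2) and 3 of 25 other spindle genes (AURKA, KIF15 and KIF22) rose on average. The other condensin and cohesin genes had the lowest median averaged change of these lists, at 0.29, as cohesin had among the members.

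AURKA, the kinase of centrosome maturation and spindle assembly, stood out from the members in the libraries where they hardly differed. It was 10.2 and 14.1 FPKM in HepG2 WT, 92.8 and 50.5 FPKM in HepG2 SR, 19.7 and 16.8 FPKM in Huh7 WT and 129.5 and 59.6 FPKM in Huh7 SR. In the first Huh7 pair it was 2.66 higher in SR on the log2 scale, where the largest member difference was 1.24 (CENPM) and the median 0.32. Of the other listed genes CENPX was 1.78 higher in that pair. The study picked AURKA from genes changed in SR of both lines and in an outside dataset, so its rise in these libraries was selected for. HJURP, the chaperone that loads CENPA at centromeres, was 2.89 and 5.41 FPKM in HepG2 WT, 9.80 and 23.8 FPKM in HepG2 SR, 7.89 and 0.913 FPKM in Huh7 WT and 15.9 and 7.24 FPKM in Huh7 SR, a pattern like that of NCAPG, with Huh7 WT replicate 2 lowest and HepG2 SR replicate 2 highest.

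Genes of DNA replication also moved. Of 15 S phase genes, 6 rose in HepG2 (0.877% of all genes), 6 in Huh7 (0.942%) and 9 on average (1.9%). Their median averaged change was 1.26. MCM3, a subunit of the replicative helicase, was 16.4 and 36.6 FPKM in HepG2 WT, 88.3 and 129 FPKM in HepG2 SR, 32.0 and 18.1 FPKM in Huh7 WT and 84.8 and 69.0 FPKM in Huh7 SR, with no overlap between SR and WT. In the first Huh7 pair, 1 library against 1, the S phase genes had a median difference of 1.24, against 0.32 for the members. All 15 were higher in SR there, as were 49.9% of all genes. In the other pairs the medians were 1.43 against 1.34 and 0.78 against 0.58 in HepG2, and 1.15 against 1.34 in the second Huh7 pair. Of 12 general proliferation genes, 0 rose in either line alone (0.877% of all genes in HepG2 and 0.942% in Huh7). On average 4 rose (CCNA2, CCNB2, FOXM1 and LIN9), against 1.9% of all genes.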

How the data were processed

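Polyadenylated RNA of 8 HepG2 and Huh7 libraries was analysed from the values deposited per library. The authors deposited FPKM (fragments scaled for transcript length and library total), and their submission notes name fastp 0.20.0 and GRCh38. The aligner, counting tool and annotation are not given in the sources used here. The authors state edgeR for differential expression, which needs counts and was not repeated. Among low values of 35762 genes with a single transcript, 8.16% to 15.2% were whole multiples of 1 read (tolerance 0.02), where 4% would be by chance, so read counts and depth were not recovered and no interval for depth is given.

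Groups came from the labels. The 40 members and all gene lists were chosen with earlier results of these data known. Of 63241 identifiers, 62666 had a symbol. Gene positions are those of GENCODE release 29, and start site sequences from RefSeq. The test was limma (version 3.58.1, R 4.3.3) on log2(FPKM + 1), with 4 group means, eBayes with trend and 4 residual degrees of freedom, over the 15173 genes that reached FPKM 1 in 2 or more libraries. Fold changes on this scale understate those of low genes. Calls used the study's thresholds (unadjusted p under 0.05, log2 fold change of at least 0.5 in size). Genes named with values were those called, those with no overlap of SR and WT, and the member of each complex with the largest averaged change or the highest mean, plus the called genes of the other lists. MIS12 and the members given by range were added after their values were seen. Same-numbered libraries deviated together in Huh7 (r of deviations 0.796) but hardly in HepG2 (0.125), each r shared by the 2 pairs of a line. In Huh7 that r includes the split in profile between the replicate 1 and the replicate 2 libraries. The sample titles number the replicates and do not state a pairing. The fit with the replicate number within each line as a block is given beside the averaged comparison. The pipeline was tested on simulated data. Alternatives were the pseudocount, filter, scaling, block, a fit of each line alone, eBayes without trend, other thresholds and libraries left out. A comparison of the 5 libraries alike was chosen after seeing the data. Other steps used Python 3.11.15 with matplotlib 3.10.9, NumPy 2.4.6 and pandas 2.3.3.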

Additional observations from a re-analysis of the deposited data

How the results depend on the processing

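Another filter, another pseudocount or eBayes without trend left the counts of called members as they were. Rescaling to TPM gave 1 called member in HepG2, against 3, as well as 2 in Huh7 and 6 on average. The share of all genes that rose was then 0.567%, 0.712% and 1.3%. Quantile normalization gave 8 on average (2.04% of all genes rose). No member was called in any comparison at an adjusted p under 0.05 (0 in each of HepG2, Huh7 and the average). With each line fitted alone, 0 members were called in Huh7 (0.461% of all genes rose), and that setting gives no value for the average. The replicate number as a block left 1 member called in HepG2 (0.844% of all genes rose) and 1 in Huh7 (0.817%). As a block within each line it gave 13 in HepG2 (3.32% of all genes rose), 11 in Huh7 (2.35%) and 20 on average (4.55%). With 1 library left out, the count ran from 0 to 6 in HepG2, from 0 to 21 in Huh7, from 1 to 24 on average, from 0 to 3 between Huh7 and HepG2 and from 0 to 2 for the difference between SR effects, and the lone library of a group was then assumed to vary like the others. The number of members with every SR library above every WT library ran from 4 to 14, and was 2 under TPM and 8 under quantile normalization.

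With 1 library left out, the median change ran from 0.41 to 1.54 in HepG2, from -0.025 to 1.76 in Huh7 and from 0.43 to 1.26 on average, from -0.52 to 0.27 between Huh7 and HepG2, and from -0.89 to 0.79 for the difference between SR effects. Without the 3 libraries that stand apart, 15 members rose and 1 fell in Huh7 (6.66% and 7.14% of all genes), a comparison of 1 library with 1 whose spread comes from the HepG2 WT pair alone (1 residual degree of freedom). The counts called were 16 in Huh7, 16 on average (6.19% of all genes rose), 7 between the lines with a median of -0.61 (5.33% fell) and 1 for the difference between SR effects (3.43% fell), whose median was 0.56, and 13 members had no overlap. The 5 libraries alike gave 9 called members (2.8% of all genes rose) and a median of 0.87 for SR versus WT. With 1 library left out, the fitted change of 6 of 40 members changed sign in HepG2, of 23 in Huh7 and of 5 on average. Among the genes named by the rule these were RAD21 (-0.21 to 0.35 in HepG2, -0.37 to 0.77 in Huh7, -0.15 to 0.42 on average), NCAPD2 (-0.18 to 0.60 in HepG2, -0.22 to 0.95 in Huh7, -0.0073 to 0.58 on average), and in Huh7 NDC80 (-0.25 to 2.89), NCAPG (-0.016 to 2.82) and SMC3 (-0.56 to 0.32). Of the others, KIF4A was -1.16 and BUB1 -0.59 in Huh7 without Huh7 WT replicate 2. RAD21 in HepG2 was also -0.034 under TPM and -0.038 under quantile normalization. The cause was not tested. Read depth is unknown, so no limit set by it is given.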
